A study of Mus musculus with 8 samples.

Results

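The 78 protein-coding mouse genes described here encode matrix metalloproteinases (22 Mmp genes), their tissue inhibitors (4 Timp genes), the disintegrin and metalloproteinase proteins (33 Adam genes) and the secreted ADAMTS proteases (19 Adamts genes). They were taken by symbol and biotype from the 41457 genes of the deposited tables, without use of their expression. Poly(A) RNA was sequenced from epidermal keratinocytes (KCs) that had been cultured for 1 week (n = 4) or for 3 weeks (n = 4). All 8 samples came from wild-type C57BL/6 mice. The KCs were prepared from the tail skin of adult animals, grown without treatment in serum-free low-calcium medium, and split on reaching 90% confluence. The 4 cultures of each time came from independent experiments. The study describes batches of KCs that were followed at both times, and 3 preparation numbers occur at 1 and at 3 weeks. The comparison was made without this pairing, and values with the preparation number as a block (6 samples) are given where they change a call. Whether animals were pooled is not given in the sources used here, so the p-values measure the spread between these cultures.

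MMPs are secreted or membrane-bound zinc proteases that are made as inactive proenzymes and cleave collagens, laminins, fibronectin and proteoglycans. ADAM proteases sit in the cell membrane and shed the extracellular parts of cytokines, growth factor precursors and adhesion molecules, whereas ADAMTS proteases are secreted and process proteoglycans, procollagens and fibrillin-rich matrix. TIMPs bind the active site of these enzymes. In the epidermis, KCs use them during wound closure, in the turnover of the basement membrane and in the shedding of ligands of the epidermal growth factor (EGF) receptor.

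A large part of the family was silent in these cultures, and the genes that were expressed changed unevenly between 1 and 3 weeks. Levels are given as RPKM, the exon reads of a gene divided by its exon length in kilobases and by the number of mapped reads in that sample. Of the 78 genes, 17 had no exon read in any sample and 22 more had reads but a mean below 0.1 RPKM at both times, so that 39 were classed as not expressed. A further 17 were weakly expressed, with the higher of the group means between 0.1 and 1 RPKM, and 22 reached a mean of at least 1 RPKM at 1 or at 3 weeks. The total exon reads ranged from 13896807 to 20026084 per sample, and the members took between 0.119% and 0.294% of them. For a gene without reads, 3 reads in a sample would correspond to between 0.0143 and 0.196 RPKM, depending on exon length and depth, and lower levels were not detectable.

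Enough reads for a test were found for 36 members. They were tested with edgeR's quasi-likelihood test on the exon reads together with all other genes, and p-values were adjusted over all 12590 tested genes by the Benjamini-Hochberg method with a threshold of 0.05. By this test 14 members were higher (38.9% of the tested members) and 4 were lower (11.1%) at 3 weeks. Among all tested genes 15.7% were higher and 17.0% lower, and 32.8% differed in either direction, against 50.0% of the tested members. The median log2 fold change, 3 weeks over 1 week, was 0.66 for the tested members and 0.03 for all tested genes. On the log2(RPKM + 0.1) scale the median of all tested genes was -0.16, so RPKM values, which carry no correction for library composition, put 3 weeks slightly lower than the fold changes do. In 13 of the 36 tested members (36.1%) the RPKM values of the 2 times did not overlap, close to the 37.0% of all tested genes.

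By family, the test called 5 Mmp genes higher and 3 lower of 14 tested, 1 Timp gene higher of 3, 3 Adam genes higher and 1 lower of 8, and 5 Adamts genes higher and none lower of 11. For the counts of 0 lower genes, an unadjusted p under 0.05 in edgeR was reached by 0 Timp genes and 1 Adamts gene (Adamts20), and DESeq2 called 0 in both families. In limma, Adamts20 was called lower on the log2(RPKM + 0.1) scale (log2 fold change -1.02, adjusted p = 0.0426) but not with a pseudocount of 1, and no Timp gene was called lower. The 4 lower genes were Mmp28, Mmp3, Mmp17 and Adam8. Without 3 weeks replicate 4 the number of lower members rose from 4 to 8, since Adamts20, Adamts9, Mmp2 and Mmp23 then passed the threshold as well. That sample and 3 weeks replicate 3 differed most from the other cultures, as replicate pairs that include them had chi-square statistics per degree of freedom of 113.7 to 262.1 over all genes, against 15.3 to 65.1 for the other pairs. Of the 22 expressed members, replicate 3 had the lowest 3-week value in 16 and replicate 4 the highest in 10.

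**Figure D1:**
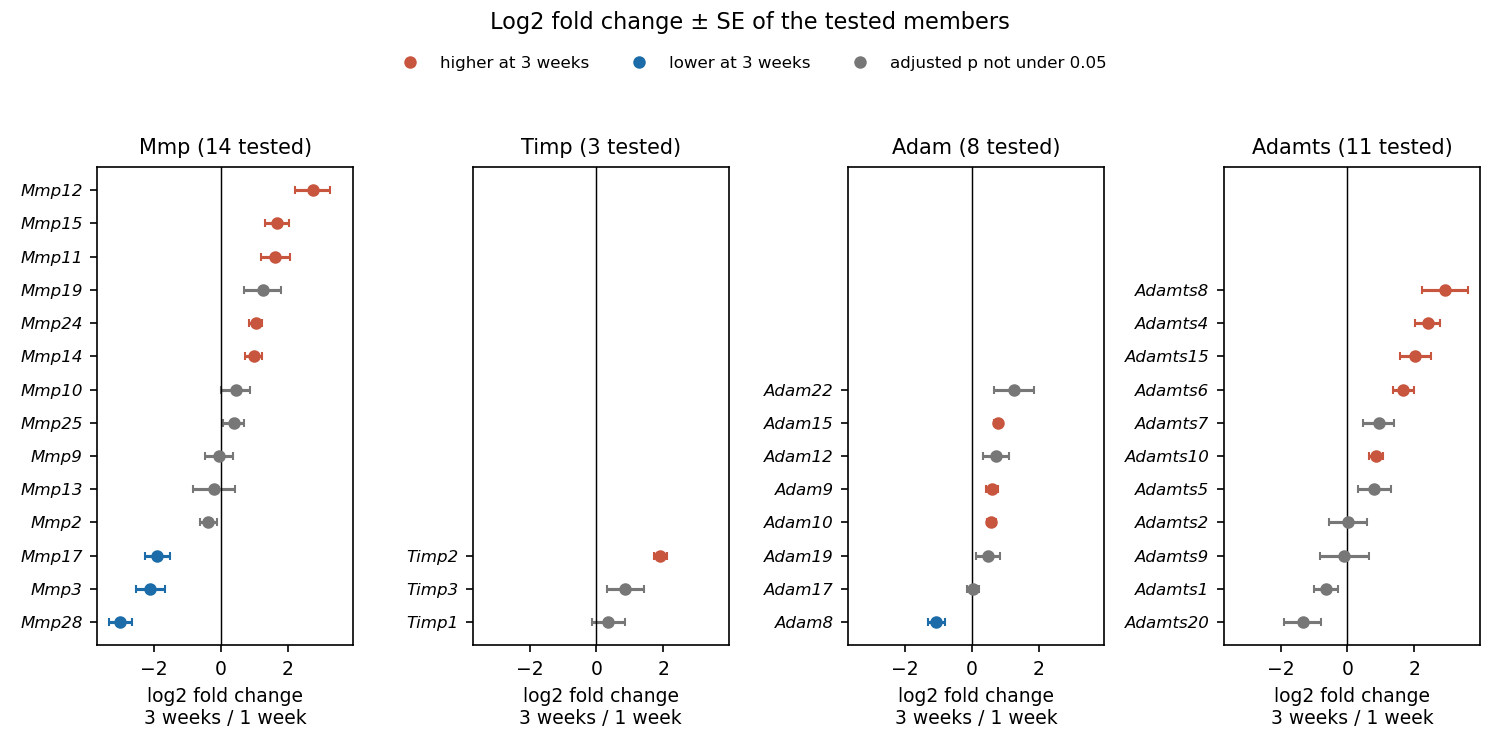
Log2 fold changes (3 weeks over 1 week, exon reads, edgeR) of the 36 tested members by family, with bars of 1 standard error. Red points are the 14 members that were higher and blue points the 4 that were lower at 3 weeks with an adjusted p under 0.05, and grey points are the other 18. All 4 blue points lie at or below -1.06.

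The culture was checked against markers of the cell types that a skin preparation can hold. Summed over 6 KC markers, the level was between 1.23e+04 and 1.45e+04 RPKM at 1 week and between 7.31e+03 and 8.52e+03 RPKM at 3 weeks. Krt5 was the only marker of this list that passed the test and fell by 1.32 on the log2 scale (adjusted p = 0.00103, edgeR). Fibroblast markers (8 genes) summed to between 4.00 and 6.98 RPKM at 1 week and between 2.84 and 6.14 RPKM at 3 weeks, with Pdgfrb lower (log2 fold change -1.74, adjusted p = 0.0102, edgeR) and the other 7 not called. The 6 melanocyte markers summed to between 3.54 and 21.4 RPKM at 1 week and between 1.64 and 5.94 RPKM at 3 weeks, with Pmel lower (log2 fold change -2.06, adjusted p = 0.0266, edgeR). Summed leukocyte and Langerhans cell markers (8 genes, of which Cd207 and Trdc had no read) stayed between 0.715 and 2.18 RPKM and summed endothelial markers (4 genes) between 0.285 and 0.637 RPKM in all samples. In such bulk RNA, fewer cells that express a gene and less RNA per cell cannot be told apart.

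Among the secreted MMPs, the stromelysins differed from each other. Mmp3 (ENSMUSG00000043613), which encodes stromelysin-1, a protease for laminin, fibronectin and proteoglycans that also activates other proenzymes, was the MMP gene with the highest mean at 1 week. Its 1-week values were 17.1, 54.5, 22.9 and 28.4 RPKM in replicates 1 to 4, and its 3-week values were 8.64, 9.36, 3.92 and 3.33 RPKM. Every 3-week sample lay below every 1-week sample, with replicate 2 far above the other cultures at 1 week. The mean fell from 30.7 ± 16.5 to 6.31 ± 3.13 RPKM (SD, n = 4), and the log2 fold change was -2.12 (SE 0.44, adjusted p = 0.00621, edgeR), a 4.35-fold decrease. Mmp10, which encodes stromelysin-2, the closest relative of Mmp3, had means of 3.93 ± 1.17 and 4.67 ± 2.28 RPKM (SD, n = 4) and was not called (log2 fold change 0.45, SE 0.43, adjusted p = 0.461, edgeR). Within a sample, the ratio of Mmp3 to Mmp10 RPKM was between 5.11 and 13.7 at 1 week and between 0.549 and 2.05 at 3 weeks. Uniquely mapped reads made up 93.4% of the reads of Mmp3 and 93.0% of those of Mmp10, and the ratios from these reads alone likewise did not overlap. The ratio of Mmp3 to Mmp10 was chosen with the values in view and was not tested.

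Mmp3 and Mmp10 lie in a cluster of 9 protein-coding Mmp genes that spans 427.1 kb of chromosome 9 (chr9:7272514-7699585, GRCm38). From one end to the other the order of these 9 is Mmp13, Mmp12, Mmp1b, Mmp3, Mmp10, Mmp8, Mmp27, Mmp20 and Mmp7. Mmp13, which encodes collagenase-3, was not called, with means ± SD (n = 4) of 2.38 ± 0.465 and 1.88 ± 1.63 RPKM (log2 fold change -0.20, SE 0.63, adjusted p = 0.841, edgeR). Its 3-week samples split into 3.35 and 3.21 RPKM in replicates 1 and 2 and 0.251 and 0.713 RPKM in replicates 3 and 4. Mmp12, the gene of the macrophage elastase, went the other way from Mmp3, with 0.0674 to 0.128 RPKM at 1 week and 0.141 to 0.749 RPKM at 3 weeks (log2 fold change 2.74, SE 0.53, adjusted p = 0.00455, edgeR). Of the leukocyte and Langerhans cell markers, Cd74 and Csf1r had enough reads for the test and were not called, with log2 fold changes of 0.11 and 0.77 (adjusted p = 0.878 and 0.129, edgeR), and their part in the values of Mmp12 was not tested. At the other end of the cluster, Mmp8, Mmp27, Mmp20 and Mmp7 had 3, 10, 1 and 0 reads over all samples. Thus the cluster held 1 lower gene, 1 higher gene, 2 expressed genes without a call, the weakly expressed Mmp1b, which had too few reads for the test, and 4 genes that were not expressed.

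**Figure D2:**
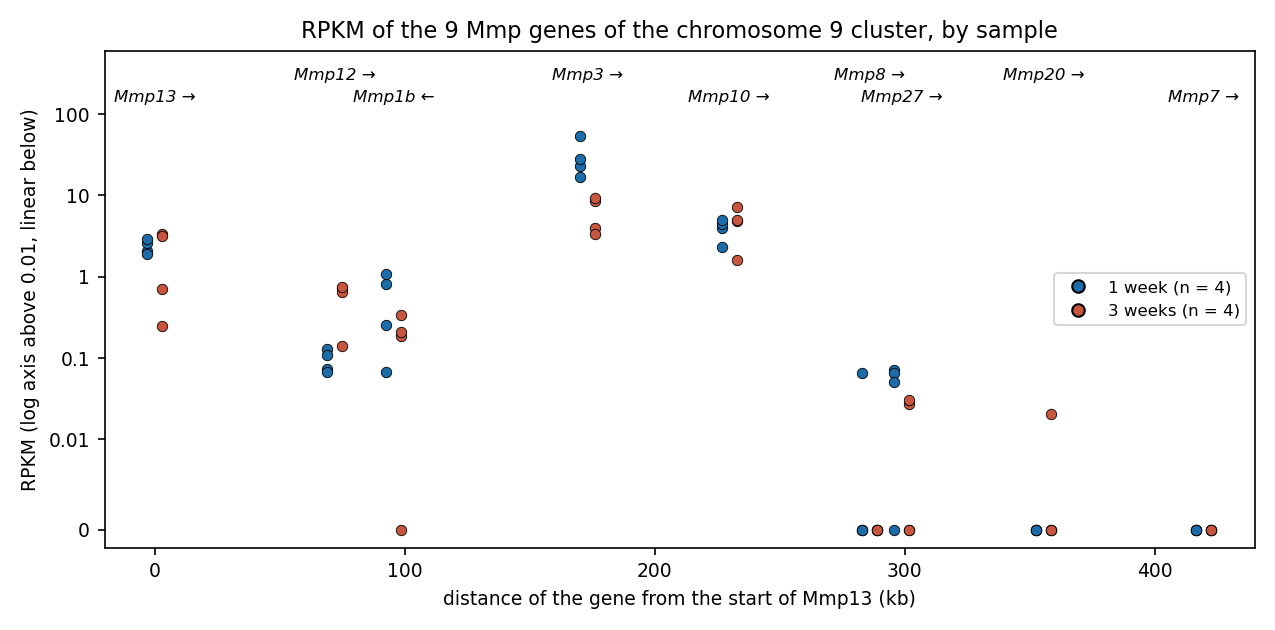
RPKM of the 9 genes of the chromosome 9 cluster in each sample (blue, 1 week; red, 3 weeks; n = 4 each), against the distance in kb from the start of Mmp13, with arrows for the strand. The vertical axis is logarithmic above 0.01 RPKM and linear below. Mmp3 is lower and Mmp12 higher at 3 weeks, the values of Mmp13 and Mmp10 overlap, and the 4 genes on the right are at or near 0.

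The sequences upstream of the 4 cluster genes that were tested are shown here because neighbours with different changes can be compared base by base. Each run holds the 250 bases before a start site of the gene in RefSeq (GRCm38.p6), written 5′ to 3′, and Mmp12 has 2 start sites there. Capitals mark matches to TGANTCA, the core bound by the AP-1 factors, and to TATAAA, the TATA box core, searched on both strands.
Mmp13, chr9:7272264-7272513, plus strand: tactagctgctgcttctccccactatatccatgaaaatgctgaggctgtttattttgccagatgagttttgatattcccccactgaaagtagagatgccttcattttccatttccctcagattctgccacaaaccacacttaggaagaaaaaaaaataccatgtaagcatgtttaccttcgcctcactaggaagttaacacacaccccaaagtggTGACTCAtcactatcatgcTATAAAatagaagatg
Mmp12 (upstream start), chr9:7344147-7344396, plus strand: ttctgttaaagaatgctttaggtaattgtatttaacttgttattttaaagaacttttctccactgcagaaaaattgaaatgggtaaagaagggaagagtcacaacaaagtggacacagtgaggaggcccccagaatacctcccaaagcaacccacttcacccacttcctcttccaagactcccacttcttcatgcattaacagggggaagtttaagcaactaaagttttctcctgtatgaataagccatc
Mmp12 (downstream start), chr9:7347124-7347373, plus strand: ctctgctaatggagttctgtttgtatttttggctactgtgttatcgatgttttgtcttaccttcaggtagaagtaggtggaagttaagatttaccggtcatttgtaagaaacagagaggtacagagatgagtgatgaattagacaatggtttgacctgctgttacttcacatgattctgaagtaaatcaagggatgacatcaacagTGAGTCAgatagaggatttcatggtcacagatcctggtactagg
Mmp3, chr9:7445572-7445821, plus strand: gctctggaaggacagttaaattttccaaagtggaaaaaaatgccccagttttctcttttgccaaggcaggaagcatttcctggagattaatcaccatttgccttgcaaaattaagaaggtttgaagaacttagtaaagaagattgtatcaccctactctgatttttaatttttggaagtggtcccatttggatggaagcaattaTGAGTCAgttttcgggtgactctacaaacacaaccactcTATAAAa
Mmp10, chr9:7502092-7502341, plus strand: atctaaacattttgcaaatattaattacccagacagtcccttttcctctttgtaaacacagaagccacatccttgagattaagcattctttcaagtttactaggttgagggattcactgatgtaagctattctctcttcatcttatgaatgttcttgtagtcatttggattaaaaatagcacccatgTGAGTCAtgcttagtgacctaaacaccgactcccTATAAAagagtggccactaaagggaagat
The matches to TGANTCA begin at -35 in Mmp13, at -44 from the downstream start of Mmp12, at -46 in Mmp3 and at -63 in Mmp10, counted from the start site. Those to TATAAA begin at -16 in Mmp13, at -7 in Mmp3 and at -29 in Mmp10, and neither Mmp12 window held this motif. The lower gene Mmp3 and its uncalled relative Mmp10 thus hold the same 7 letters, TGAGTCA, and both a TATAAA. Over the cluster, counted by gene, 7 of 9 had TGANTCA and 6 of 9 had TATAAA in a window, where Mmp12 and Mmp7 had 2 windows each. Counted by window, the motifs occurred in 6.75% and 12.4% of all 32851 windows of this length. Mmp20 and Mmp7, which were not expressed, also held both motifs. Of the 78 members 48 matched a RefSeq window, 11 of these 48 genes had TGANTCA, and 7 of the 11 were genes of the cluster. TonE, the element named for the response to tonicity and bound by NFAT5, matched in 4.31% of all windows and in the windows of 2 members, Adam1a and Adam21, both not expressed here. A match describes letters in the window and is not a measured binding site.

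The gelatinases were expressed at both times without a call. Mmp9 (ENSMUSG00000017737, chr2:164940780-164955850), which encodes gelatinase B, had 16.8, 37.5, 36.0 and 16.5 RPKM at 1 week and 42.0, 23.9, 14.7 and 12.2 RPKM at 3 weeks in replicates 1 to 4. The groups overlapped, and the highest and the lowest sample of all 8 were both 3-week cultures. Its log2 fold change was -0.04 (SE 0.42, adjusted p = 0.949, edgeR), and the sign turned when 1 week replicate 2 or 3 or 3 weeks replicate 3 or 4 was left out (0.07 to 0.18). Mmp2, the gelatinase A gene, had means ± SD (n = 4) of 3.00 ± 0.317 and 2.09 ± 0.914 RPKM and was not called (adjusted p = 0.297, edgeR). Without 3 weeks replicate 4, at 3.41 RPKM the highest 3-week value, Mmp2 was lower at 3 weeks (log2 fold change -0.68, adjusted p = 0.0164, edgeR).

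Mmp14, Mmp15 and Mmp24, the 3 expressed genes for transmembrane-anchored MMPs, were higher at 3 weeks, as were 15.7% of all tested genes, and Mmp14 lost the call in 4 alternatives. Of the GPI-anchored types, Mmp17 was lower and Mmp25 was not called, and the classes were not compared by a test. Mmp14 encodes MT1-MMP, which activates pro-MMP2 at the cell surface. It had 14.6 to 21.1 RPKM at 1 week and 15.1 to 41.8 RPKM at 3 weeks, where replicates 1, 2 and 4 exceeded every 1-week sample and replicate 3 did not. The log2 fold change was 0.99 (SE 0.26, adjusted p = 0.0172, edgeR), and 0.89 without 1 week replicate 1, where the call was lost (adjusted p = 0.0673). It was also lost on the log2(RPKM + 0.1) scale (adjusted p = 0.0846, limma). Of its reads on the gene, 26.0% lay in introns. Mmp15, the gene of MT2-MMP, had 2.77, 2.01, 2.43 and 1.95 RPKM at 1 week and 5.91, 4.83, 3.38 and 12.6 RPKM at 3 weeks. These groups did not overlap, and replicate 4 at 3 weeks stood above the rest. Its log2 fold change was 1.68 (SE 0.35, adjusted p = 0.00689, edgeR).

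Mmp24, the gene of MT5-MMP, had 1.36, 1.44, 1.53 and 0.956 RPKM at 1 week and 2.99, 2.55, 1.78 and 2.43 RPKM at 3 weeks. All 3-week samples were above all 1-week samples, by a log2 fold change of 1.04 (SE 0.20, adjusted p = 0.00435, edgeR). Mmp16, the remaining transmembrane type, had 12 reads in all and was not expressed. Mmp17, the gene of the GPI-anchored MT4-MMP, was weakly expressed and fell from 0.143 to 0.323 RPKM at 1 week to between 0.0460 and 0.0823 RPKM at 3 weeks (log2 fold change -1.90, SE 0.37, adjusted p = 0.00502, edgeR). Mmp25, the gene of MT6-MMP, had means of 3.24 ± 1.15 and 3.83 ± 1.35 RPKM (SD, n = 4) and was not called (log2 fold change 0.39, SE 0.31, adjusted p = 0.373, edgeR). With the preparation block Mmp25 was called higher (log2 fold change 0.76, SE 0.19, adjusted p = 0.0345, edgeR).

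Epilysin, an MMP known from KCs and the testis, showed the largest fall of all tested members. Its gene Mmp28 (ENSMUSG00000020682, chr11:83440768-83463071) had 2.13, 2.36, 0.881 and 2.11 RPKM at 1 week and 0.208, 0.236, 0.189 and 0.193 RPKM at 3 weeks. The 3-week samples lay close together and far below every 1-week sample, of which replicate 3 was the lowest. Its log2 fold change was -3.01 (SE 0.34, adjusted p = 0.000490, edgeR), an 8.06-fold decrease. Mmp11, which encodes stromelysin-3, a protease activated inside the cell by furin, was weakly expressed, with 0.102 to 0.350 RPKM at 1 week and 0.307 to 0.658 RPKM at 3 weeks. It was higher at 3 weeks (log2 fold change 1.63, SE 0.44, adjusted p = 0.0200, edgeR). Without 1 week replicate 1, 3 or 4 the log2 fold change was 1.51, 1.54 or 1.42 and the threshold was missed (adjusted p between 0.0547 and 0.0612).

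Expressed TIMP genes were Timp1, Timp2 and Timp3, and Timp2 alone was called. Timp2 (ENSMUSG00000017466, chr11:118301069-118355740) encodes the inhibitor that also joins MT1-MMP in the complex that captures pro-MMP2. It had 24.0, 28.3, 43.1 and 34.6 RPKM at 1 week and 112, 110, 81.3 and 135 RPKM at 3 weeks. The lowest 3-week culture, replicate 3, was far above the highest 1-week culture. The log2 fold change was 1.91 (SE 0.20, adjusted p = 0.000391, edgeR), a 3.76-fold increase, and Timp2 was the member with the highest mean at 3 weeks.

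Timp1, whose product inhibits most secreted MMPs, had 12.6 to 23.0 RPKM at 1 week and 4.60 to 29.5 RPKM at 3 weeks (log2 fold change 0.35, SE 0.49, adjusted p = 0.618, edgeR). The low value came from 3 weeks replicate 4, and without it Timp1 was called higher (log2 fold change 0.70, adjusted p = 0.0443, edgeR). Uniquely mapped reads made up 44.2% of the reads of Timp1. Timp3, whose product binds the matrix and also inhibits ADAM10, ADAM17 and several ADAMTS proteases, had 16.4 to 30.2 RPKM at 1 week. At 3 weeks it had 21.6, 19.3, 12.2 and 91.4 RPKM in replicates 1 to 4, so that replicate 4 stood alone. It was not called (log2 fold change 0.86, SE 0.56, adjusted p = 0.266, edgeR), and without that sample the log2 fold change was -0.13. As uniquely mapped reads were only 5.01% of those of Timp3 and 21.3% of its exon bases overlap Syn3 on the opposite strand, its level is uncertain. Timp4 had 8 reads in all and was not expressed.

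Summed over the 4 Timp genes, the level was 63.6 to 85.2 RPKM at 1 week and 123 to 231 RPKM at 3 weeks, without overlap. The sum over the 22 Mmp genes was 67.5 to 131 RPKM at 1 week and 52.0 to 117 RPKM at 3 weeks, with overlap. The ratio of the sums in a sample, Timp over Mmp, was 1.00, 0.587, 0.857 and 0.778 at 1 week and 1.35, 1.77, 2.37 and 2.78 at 3 weeks. From uniquely mapped reads, which leaves out most reads of Timp3 and of Timp1, the ratio was 0.299 to 0.555 at 1 week and 1.08 to 1.88 at 3 weeks. The ratio of Timp2 to Mmp14 was between 1.58 and 2.05 at 1 week and between 2.85 and 5.40 at 3 weeks. These ratios describe RNA levels, were chosen with the values in view and were not tested.

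**Figure D3:**
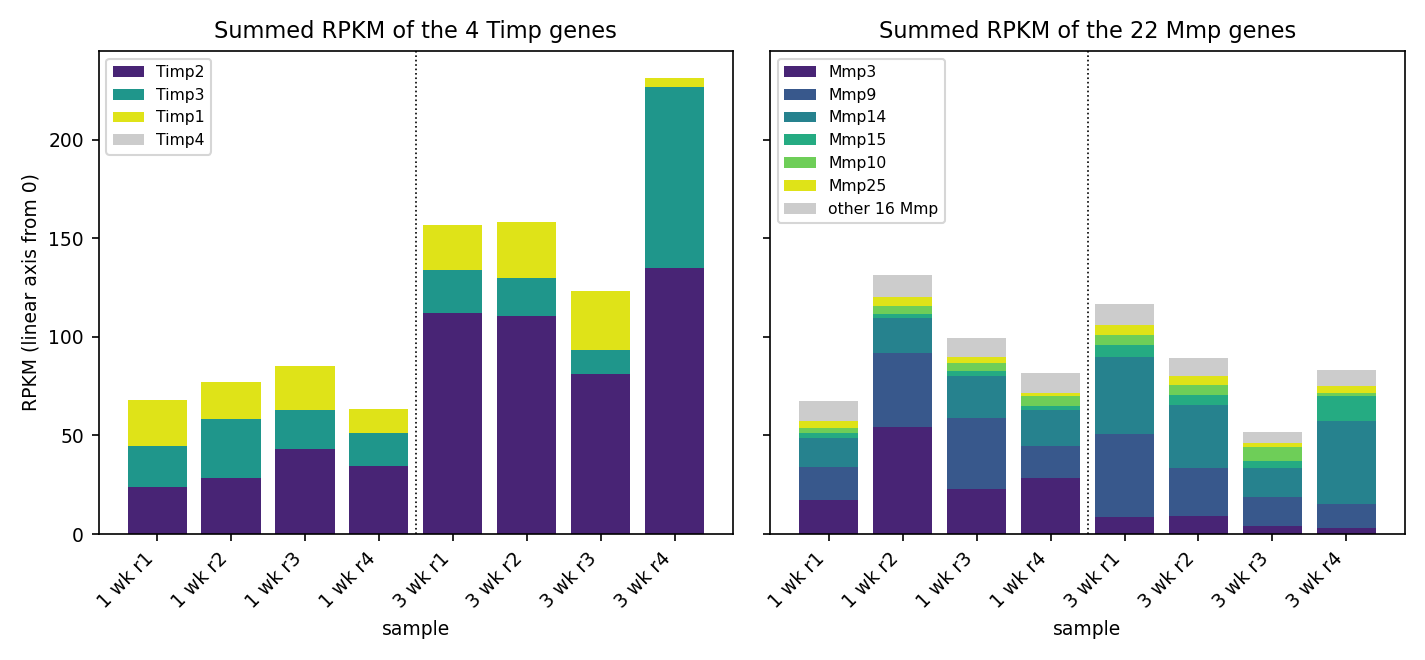
Summed RPKM of the 4 Timp genes (left) and of the 22 Mmp genes (right) in each sample, stacked by gene on a linear axis from 0, with 1-week samples left and 3-week samples right of the dotted line. The Timp sums are 63.6 to 85.2 RPKM at 1 week and 123 to 231 RPKM at 3 weeks, mostly through Timp2, and the Mmp sums overlap while the part of Mmp3 shrinks.

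The make-up of the Mmp and Timp sums differed between the times, by values that were not tested. Mmp3 took 31.1% ± 8.53 (SD, n = 4) of the summed Mmp RPKM at 1 week and 7.36% ± 2.65 at 3 weeks. Mmp14 led at 3 weeks, with 37.3% ± 9.15 against 19.6% ± 4.03 at 1 week. Mmp9 held 27.5% ± 6.78 and 26.4% ± 8.85. Timp2 took 44.3% ± 9.64 of the Timp sum at 1 week and 66.4% ± 5.76 at 3 weeks. Counting uniquely mapped reads only, which leaves out most reads of Timp1 and Timp3, raised these 2 shares to 76.4% and 90.3%.

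Expression of the Adam genes was concentrated in 6 proteases that many cell types use as sheddases, Adam8, Adam9, Adam10, Adam12, Adam15 and Adam17. Adam8 (ENSMUSG00000025473, chr7:139978932-139992562), known for shedding of adhesion molecules and receptors on leukocytes, had the highest mean of all 78 members at 1 week. Its values were 48.3, 55.7, 62.4 and 68.8 RPKM at 1 week and 22.5, 27.2, 14.1 and 38.3 RPKM at 3 weeks. The groups did not overlap, and the log2 fold change was -1.06 (SE 0.24, adjusted p = 0.0103, edgeR). Adam15, whose product can shed E-cadherin, had 6.73, 6.49, 8.20 and 7.66 RPKM at 1 week and 11.4, 10.6, 9.97 and 13.0 RPKM at 3 weeks. Each 3-week value exceeded each 1-week value, by a log2 fold change of 0.79 (SE 0.12, adjusted p = 0.00173, edgeR). Uniquely mapped reads made up 47.1% of the reads of Adam15, and 20.6% of its exon bases overlap 4731419I09Rik on the opposite strand.

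Adam10, the sheddase of Notch receptors and of E-cadherin, had 20.1 to 27.9 RPKM at 1 week and 25.5 to 35.1 RPKM at 3 weeks (log2 fold change 0.58, SE 0.13, adjusted p = 0.0110, edgeR). Replicates 1, 2 and 4 at 3 weeks were above all 1-week samples, and replicate 3 was not. On the log2(RPKM + 0.1) scale the call was lost (adjusted p = 0.0571, limma), as it was with the preparation block (log2 fold change 0.57, adjusted p = 0.0605, edgeR). Adam17, the sheddase of tumour necrosis factor and of several EGF receptor ligands, stayed between 5.57 and 10.3 RPKM in all 8 samples and was not called (log2 fold change 0.03, SE 0.19, adjusted p = 0.910, edgeR). The ratio of Adam10 to Adam17 in a sample was 2.86 to 3.15 at 1 week and 3.32 to 4.88 at 3 weeks. This ratio was chosen with the values in view and was not tested.

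Adam9, also a membrane sheddase, had 14.0 to 21.5 RPKM at 1 week and 15.6 to 26.7 RPKM at 3 weeks (log2 fold change 0.59, SE 0.18, adjusted p = 0.0318, edgeR). This call was lost when 1 week replicate 1, 3 or 4 or 3 weeks replicate 1 or 2 was left out (adjusted p between 0.0739 and 0.0912), without a filter on low counts (0.0736) and in limma on log2(RPKM + 0.1) (0.132). Adam12, which can shed heparin-binding EGF, had 10.3 to 16.8 RPKM at 1 week and 6.96 to 35.9 RPKM at 3 weeks and was not called (log2 fold change 0.72, SE 0.39, adjusted p = 0.191, edgeR). Its low value came from 3 weeks replicate 3, without which it was called higher (log2 fold change 0.98, adjusted p = 0.0220, edgeR). Adam8 took 45.2% ± 2.04 (SD, n = 4) of the summed Adam RPKM at 1 week and 20.6% ± 3.5 at 3 weeks, when Adam10 led with 27.4% ± 4.47.

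The other Adam genes were weak or silent. Adam19 was weakly expressed and not called (adjusted p = 0.334, edgeR), and Adam33 had 4 reads in all. Of the 3 neural ADAMs that lack protease activity, Adam11 and Adam23 had 27 and 7 reads, and Adam22, with 111 reads and means of 0.0374 and 0.0804 RPKM, was the only member classed as not expressed that had enough reads for the test (adjusted p = 0.134, edgeR). A further 22 Adam genes, many of them known from testis and sperm, were not expressed, and 14 of them had no read (Adam3, Adam6a, Adam6b, Adam7, Adam18, Adam20, Adam24, Adam25, Adam26a, Adam26b, Adam29, Adam32, Adam34 and Adam39). Chromosome 8 carries 13 Adam genes, 11 of them without reads, and among the 13 only Adam9 was expressed.

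**Figure D4:**
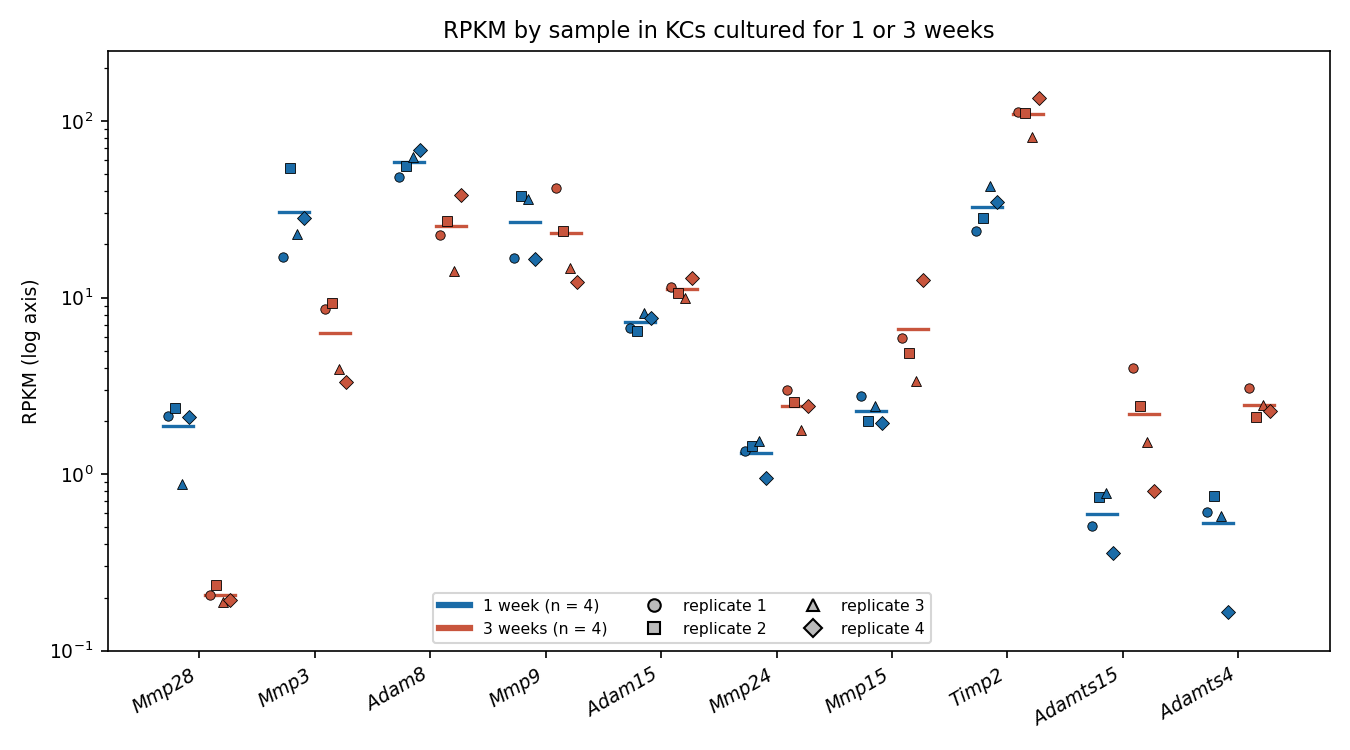
RPKM in each sample, on a log axis, of the 9 called members with a mean of at least 1 RPKM and no overlap between the times, and of Mmp9 (blue, 1 week; red, 3 weeks; symbols mark replicates 1 to 4 and lines the means, n = 4). Mmp28, Mmp3 and Adam8 are lower in every 3-week sample, Mmp9 overlaps, and the other 6 genes are higher in every 3-week sample.

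Adamts1, a protease for the proteoglycans versican and aggrecan, had the highest mean of its family at both times, and 5 of the 11 tested Adamts genes, all weaker than Adamts1, were higher at 3 weeks. Adamts1 had 13.1 to 23.1 RPKM at 1 week and 3.88 to 16.9 RPKM at 3 weeks and was not called (log2 fold change -0.65, SE 0.36, adjusted p = 0.197, edgeR). Its part of the summed Adamts RPKM went from 87.1% ± 3.43 to 56.6% ± 13.6 (SD, n = 4). Adamts4, also an aggrecanase, had 0.612, 0.747, 0.579 and 0.165 RPKM at 1 week and 3.09, 2.10, 2.46 and 2.26 RPKM at 3 weeks. The groups were far apart, with replicate 4 lowest at 1 week, and the log2 fold change was 2.40 (SE 0.39, adjusted p = 0.00209, edgeR), a 5.28-fold increase.

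Adamts15, a versican-cleaving protease, had 0.507, 0.740, 0.780 and 0.356 RPKM at 1 week and 3.99, 2.42, 1.52 and 0.801 RPKM at 3 weeks. The groups did not overlap, but 3 weeks replicate 4 was hardly above the highest 1-week value, and the log2 fold change was 2.03 (SE 0.46, adjusted p = 0.00970, edgeR). Adamts8 lies next to Adamts15 on chromosome 9, on the opposite strand and 20.1 kb away. It had 0.0342 to 0.181 RPKM at 1 week, and 0.710, 0.567, 0.805 and 0.103 RPKM at 3 weeks in replicates 1 to 4, so that replicate 4 alone fell within the 1-week range. In Mmp12, too, replicate 4 had the lowest 3-week value. The log2 fold change of Adamts8 was 2.92 (SE 0.70, adjusted p = 0.0121, edgeR), and it was 3.53 without 1 week replicate 3 and at least 2.58 without any other single sample. Uniquely mapped reads made up 47.5% of the reads of Adamts8, and 10.6% of its exon bases overlap Gm29724 on the opposite strand. Adamts1 and Adamts5 are neighbours as well, 53.1 kb apart on chromosome 16, and neither was called (Adamts5 log2 fold change 0.80, SE 0.49, adjusted p = 0.239, edgeR).

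Adamts6 and Adamts10, whose products act on fibrillin microfibrils, were weakly expressed and both higher at 3 weeks without overlap. Adamts6 went from 0.102 to 0.232 RPKM to between 0.320 and 0.544 RPKM (log2 fold change 1.67, SE 0.32, adjusted p = 0.00428, edgeR), and 23.1% of its reads on the gene lay in introns. Adamts10 went from 0.203 to 0.275 RPKM to between 0.339 and 0.421 RPKM (log2 fold change 0.84, SE 0.21, adjusted p = 0.0151, edgeR), and its call was lost without a filter on low counts (adjusted p = 0.054) and with the preparation block (log2 fold change 0.75, adjusted p = 0.126, edgeR). Adamts20 and Adamts9, both weakly expressed, were not called (adjusted p = 0.0982 and 0.939, edgeR). Without 3 weeks replicate 4, both were lower (log2 fold changes -2.20 and -1.58, adjusted p = 0.00412 and 0.0120, edgeR). Of the procollagen N-proteinases, Adamts2 was weakly expressed and not called (adjusted p = 0.987, edgeR), and Adamts3 and Adamts14 had 18 and 22 reads in all.

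Below the filter for the test, Adamts16 stood out and was chosen after its values were seen. It had 1, 1, 0 and 0 reads at 1 week and 23, 12, 15 and 7 reads at 3 weeks, which is 0.0697 to 0.181 RPKM at 3 weeks, and 44.1% were uniquely mapped. Without a filter on low counts its adjusted p was 0.00108 (edgeR). The other weakly expressed members without a test were Adamts12 (88 reads), Mmp1b (72) and Mmp23 (76). Besides the genes named so far, Adam1a, Adam1b, Adam2, Adam4, Adam5, Adam21, Adam28, Adam30, Adamts13, Adamts17 and Adamts19 had between 1 and 47 reads in all and were not expressed, and Adamts18 and Mmp21 had none. Mmp19, of whose reads only 15.9% were uniquely mapped, and Adamts7 were weakly expressed and not called (adjusted p = 0.124 and 0.157, edgeR). Mmp19 was called higher without 1 week replicate 2 (adjusted p = 0.0461, edgeR) and Adamts7 without 3 weeks replicate 3 (0.0457). With the preparation block Mmp19 was called higher as well (log2 fold change 2.11, SE 0.46, adjusted p = 0.0228, edgeR).

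Genes related to these proteases were read from 6 lists, 57 genes in all. Of these, 43 were tested, and 18 were higher and 3 lower at 3 weeks. Among all tested genes 15.7% were higher and 17.0% lower, and the counts of each list are to be read against these shares. The lists were drawn up by function, with results of these data known. Medians of log2 fold changes are over the tested genes of a list and are to be read against 0.03 for all tested genes. Of the protease inhibitors other than TIMPs, 2 of 3 tested genes were higher (median 1.01). Only Reck among the tested genes encodes an MMP inhibitor, which is membrane-anchored (log2 fold change 1.38, SE 0.26, adjusted p = 0.00453, edgeR). Cst3 and Cst6 encode cystatins, which inhibit cysteine proteases. Cst3 was higher (log2 fold change 0.50, SE 0.16, adjusted p = 0.0382, edgeR). Cst6, whose value is the median, was not called (log2 fold change 1.01, SE 0.48, adjusted p = 0.138, edgeR). Reck was weakly expressed, with means of 0.163 and 0.383 RPKM at 1 and 3 weeks. Activators and partners of the proenzymes had 5 higher and no lower of 8 tested (median 0.82). Among them was Plau, the urokinase gene, with a mean of 289 RPKM at 1 week and 592.5 RPKM at 3 weeks (log2 fold change 1.19, SE 0.22, adjusted p = 0.00364, edgeR). Furin, which cleaves many proenzymes of these families, was not called (log2 fold change 0.88, SE 0.41, adjusted p = 0.128, edgeR).

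Partners of ADAM10 and ADAM17 moved in both directions. Of 8 tested genes (median 0.45), 3 were higher, with the largest rise in Tspan17 (log2 fold change 1.00, SE 0.20, adjusted p = 0.00591, edgeR), and Tspan15 was lower (log2 fold change -1.82, SE 0.38, adjusted p = 0.00700, edgeR). Means at 1 and 3 weeks were 15.45 and 27.44 RPKM for Tspan17, but only 0.149 and 0.0374 RPKM for Tspan15, which had 106 reads in all. Both encode tetraspanins of the group that escorts ADAM10 to the cell surface. The iRhom genes Rhbdf1 and Rhbdf2, which serve ADAM17, were not called (log2 fold changes -0.36 and 0.22, adjusted p = 0.157 and 0.440, edgeR).

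Shed EGF family ligands had 2 higher and 2 lower of 7 tested genes (median -0.16). The gene of epiregulin, Ereg, rose most (log2 fold change 1.22, SE 0.22, adjusted p = 0.00365, edgeR), and Nrg1, the neuregulin gene, fell most, from a mean of 12.9 to 2.53 RPKM (log2 fold change -2.20, SE 0.37, adjusted p = 0.00258, edgeR). Of the ADAMTS-like and astacin relatives, 1 of 5 tested genes was higher (median 0.41), namely Bmp1, which encodes a procollagen C-proteinase (log2 fold change 1.71, SE 0.23, adjusted p = 0.000942, edgeR). Of 12 matrix substrates, 5 were higher and none was lower (median 1.34). The largest change was in Fn1, the fibronectin gene (log2 fold change 4.78, SE 0.68, adjusted p = 0.00117, edgeR). Fn1 had 11.0 to 28.5 RPKM at 1 week and a wide range of 101 to 929.5 RPKM at 3 weeks. Lama3 and Lamb3, which encode laminin chains of the epidermal basement membrane, were not called (adjusted p = 0.238 and 0.612, edgeR). In the 4 lists without a lower gene, an unadjusted p under 0.05 in edgeR and a call in DESeq2 or limma were likewise reached by 0 lower genes. The levels of the fibroblast markers are given above, and their part in the values of the matrix genes was not tested.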

How the data were processed

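Gene tables of 8 KC cultures (4 at 1 week, 4 at 3 weeks, grouped by the labels) were used. The authors prepared poly(A) libraries, aligned single reads to GRCm38 in the CLC Genomics Workbench (version 12.0) and deposited whole-number read counts per gene that were not normalized, together with RPKM values. The deposited RPKM values, written with decimal commas, equal exon reads over exon length and mapped reads. The strand setting and the annotation release are not given in the sources used here, so reads of genes overlapping on opposite strands cannot be told apart.

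Exon reads of all genes passing filterByExpr were compared with edgeR 4.0.16 (R 4.3.3; TMM, glmQLFit, glmQLFTest, Benjamini-Hochberg adjustment), unpaired, with standard errors derived from F. On simulated counts for 12590 genes with 200 changed, the script recovered 83% of 4-fold and 35% of 2-fold changes, with 6 false calls. In the data far more genes were called (4127), and the adjustment depends on that share. The simulated figures thus check the script and do not give the power or false calls of this comparison. The stated limit for a gene without reads covers counting error only. DESeq2 1.42.0, limma 3.58.1 and other filters, reads, blocks and sample sets were alternatives. Strand and overlaps came from GENCODE M21, promoters from RefSeq. The work outside R used Python 3.11.15.

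The rule named every called member, every other member with a mean of at least 5 RPKM at either time, Mmp3 and Mmp9, and of each list of related genes the largest called change in each direction, except where it is not reported here. Values of other members, Cst3, Cst6, Plau, Furin, Rhbdf1, Rhbdf2, Lama3 and Lamb3 were added after they were seen. The selection of members by symbol and biotype used no expression values, but it and the lists were set up with earlier results of these data known.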

Additional observations from a re-analysis of the deposited data

Results flagged for a closer look

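Single samples stood apart from the other 3 of their time in 4 of 48 groups of 4 (24 genes named by the rule, each at both times), where chance alone gives about 1 in 20 groups. Timp3 had 91.38 RPKM in 3 weeks replicate 4, against 12.2 to 21.6 RPKM in the other 3-week cultures. Mmp12 had 0.1411 RPKM in the same sample, against 0.647 to 0.749 RPKM. Adam10 had 25.54 RPKM in 3 weeks replicate 3, against 33.8 to 35.1 RPKM. Mmp28 had 0.8811 RPKM in 1 week replicate 3, against 2.11 to 2.36 RPKM.

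A row outside the 78 genes also held reads. Mmp1a, which the tables list as a polymorphic pseudogene between Mmp3 and Mmp10 (chr9:7464141-7476869), had 2, 2, 3 and 6 exon reads at 1 week and 4, 12, 4 and 4 at 3 weeks, with 12 reads in the sample with most. It was not called without a filter on low counts (log2 fold change 1.04, adjusted p = 0.312, edgeR).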

How the results depend on the processing

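Of the 18 called members, 12 stayed called in all of up to 19 alternatives that could test them, 6 lost the call in at least 1 (Adam9, Adam10, Adamts8, Adamts10, Mmp11 and Mmp14), and 0 changed sign. With the replicate block 10 members were higher and 4 lower, and Adam10, Adamts10, Mmp11 and Mmp14 lost the call (adjusted p = 0.0508, 0.0685, 0.0629 and 0.0603, edgeR). With the preparation block (6 samples) 14 were higher and 4 lower, as Adam10 and Adamts10 lost the call (0.0605 and 0.126) and Mmp19 and Mmp25 gained it (0.0228 and 0.0345). In the same 6 samples without the block, chosen after seeing the data, Adamts8 and Adamts10 lost it (0.0608 and 0.0692) and Mmp19 gained it (0.0189). A minimum of 10 reads in every sample removed Adamts8, Mmp11, Mmp12 and Mmp17, and unique reads removed Adamts8. With a sample left out, 12 to 16 members were higher and 4 to 8 lower, the 8 without 3 weeks replicate 4, and 15 to 24 related genes were called in place of 21. Deviations from the time's means were correlated across genes between samples that share a number. For replicate numbers 1 to 4 the correlations were -0.23, -0.15, -0.15 and 0.25. For the preparation numbers in the file names they were -0.23 (46), 0.20 (49) and 0.25 (90). The samples of preparations 49 and 90 correlated best with their own partner at the other time, and those of preparation 46 did not. With only 1 pair per number, these values cannot settle the pairing.

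Among the uncalled genes named by the rule, 4 changed sign. Adam17 had -0.023 without a filter on low counts, -0.13 and -0.12 in limma on log2(RPKM + 0.1) and log2(RPKM + 1), and -0.13 to 0.12 with a sample left out. Mmp9 had 0.16 with the preparation block, 0.25 in the same 6 samples without it, and -0.48 to 0.18 with a sample left out. Timp1 had -0.10 and -0.073 in limma and -0.23 with the preparation block, and Timp3 -0.13 to 1.12 with a sample left out. The cause was not tested. With 4 samples a time, changes of 2-fold can be missed.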
